A study of Homo sapiens with 6 samples.

Results

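Antisense-named RNAs are genes whose symbol is that of another gene followed by AS and a number, such as SOX21-AS1 for SOX21. Of the 53712 rows of the count table, 727 carried such a symbol, and 191 of these had no read in any library. The 99 described here were selected on their mean of 1 or more in CPM (counts scaled to the library total) over the 6 libraries. Their level is therefore a description and not a finding. It is the average of both groups: 93 members reached 1 CPM in the control group, 93 in the treated group and 87 in both. Of the 6 that passed through the treated group alone, 2 were called higher, and of the 6 that passed through the control group alone, none (0) was called lower. The last members inside the limit were MID1IP1-AS1 at 1.05, PAN3-AS1 at 1.03 and LENG8-AS1 at 1.03 CPM, and the first outside it were TMEM44-AS1 at 0.967, SLC25A5-AS1 at 0.956 and SEC24B-AS1 at 0.919 CPM.

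The cells were H9, an established human embryonic stem cell line, held in PXGL, a medium for naive pluripotency. LINE-1 is the family of retrotransposons that can still move by its own enzymes in the human genome, and the study used an antisense oligonucleotide against it (ASO-L1, 3 libraries), with the sense oligonucleotide (SO-L1, 3 libraries) as the other arm. Both arms received 25 nM oligonucleotide with Lipofectamine Stem, and both received 0.7 uM trans-ISRIB, 5 uM emricasan and 10 uM of the ROCK inhibitor Y-27632, which were taken off at 24 h. RNA was taken at 48 h from unsorted cells, which were not selected for uptake of the oligonucleotide, and poly(A) RNA was made into libraries with a directional kit. The labels do not say whether replicates were separate cultures, so a p-value here reflects the spread among these libraries alone, which may be technical. In bulk RNA, fewer cells of a type and less RNA per cell cannot be told apart.

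An antisense RNA is transcribed from the DNA strand opposite to that of a neighbouring gene. Some start head to head with a coding gene, from a promoter region that fires in both directions, and others start inside or beyond that gene and run back across it. A few have known roles, in silencing their neighbours, in pairing with other RNAs or as hosts of small nucleolar RNAs, while for most the name records position alone. RefSeq now gives 15 of the 99 a symbol ending in DT, for divergent transcript, and 24 in all go by another symbol there.

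Each library held between 23330875 and 31164287 counts, and the members took between 23086 and 30448 counts of each (0.0895% to 0.110%). The member means ran from 1.03 to 188 CPM with a median of 2.76, and 38 members lay under 2 CPM. The median standard error (SE) of a log2 fold change was 0.26 in those 38 and 0.10 in the 16 members above 10 CPM. Small changes were therefore harder to see in those 38. Core pluripotency markers were present, with POU5F1 at 1224 to 1344 CPM in SO-L1 and 1026 to 1192 CPM in ASO-L1. Their summed level was 3513 to 3790 CPM in SO-L1 and 2926 to 3428 CPM in ASO-L1 (0 of 5 called). Of the naive markers, KLF17 was near 0 (0.257 to 0.957 CPM over all libraries). The others were present, with DNMT3L at 48.2 to 83.5, KLF4 at 41.6 to 97.5 and TFCP2L1 at 35.4 to 56.1 CPM. SUSD2 was at 19.2 to 34.8, DPPA5 at 8.74 to 40.7 and DPPA3 at 6.69 to 18.6 CPM. In the ASO-L1 libraries, 2 of 7 naive markers were called higher and 3 lower (sum 221 to 237 against 244 to 248 CPM), and 3 of 5 primed markers were called higher, with summed levels of 111 to 132 CPM against 87.1 to 101 CPM. Among other lists, 2 of 6 trophectoderm markers (sum 106 to 117 against 109 to 110 CPM), 2 of 6 fibroblast markers (524 to 565 against 476 to 544 CPM, with DCN at 0 in 4 libraries) and 1 of 5 neural markers (1283 to 1479 against 1258 to 1408 CPM, with SOX1 at or near 0) were called higher. Their part in the changes below was not tested.

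The members did not move as a block: 17 rose after ASO-L1, 10 fell, and 72 did not pass the test (edgeR quasi-likelihood, Benjamini-Hochberg adjusted p under 0.05 over 16873 genes). The 27 called are 27.3% of the members, and 33.7% of all genes tested were called. Higher calls made up 17.2% of the members against 18% of all genes, and lower calls 10.1% against 15.7%. The median log2 fold change was 0.02 in the members and -0.01 in all genes tested. A change of at least 2-fold was called for 4 members, APCDD1L-AS1, RASAL2-AS1, COX10-AS1 and SOX21-AS1, while 5.02% of all genes reached that size. Among the 14271 genes of at least 1 CPM the called share was 37.4%, with 19.4% higher and 18% lower. In 45 members (50.9% of all genes) no ASO-L1 value lay within the SO-L1 range, 23 of them higher (25.8% of all genes) and 22 lower (25.1%), and these 45 include all 27 called. With the replicate number as a block, 38 members were called, against 45.7% of all genes and 50.6% of those of at least 1 CPM. The labels do not state that equal numbers are pairs, and in the data only number 2 is clear, so all block counts rest on an assumed pairing. Of the 38, 21 were higher (23.3% of all genes, 25.2% of those of at least 1 CPM) and 17 lower (22.5% and 25.4%). Leaving out SO-L1 replicate 1 or SO-L1 replicate 3 each left 16 called members, and leaving out replicate 1 of both groups left 8. The share of all genes called was not counted in these refits, so the losses are not particular to the members.

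**Figure D1:**
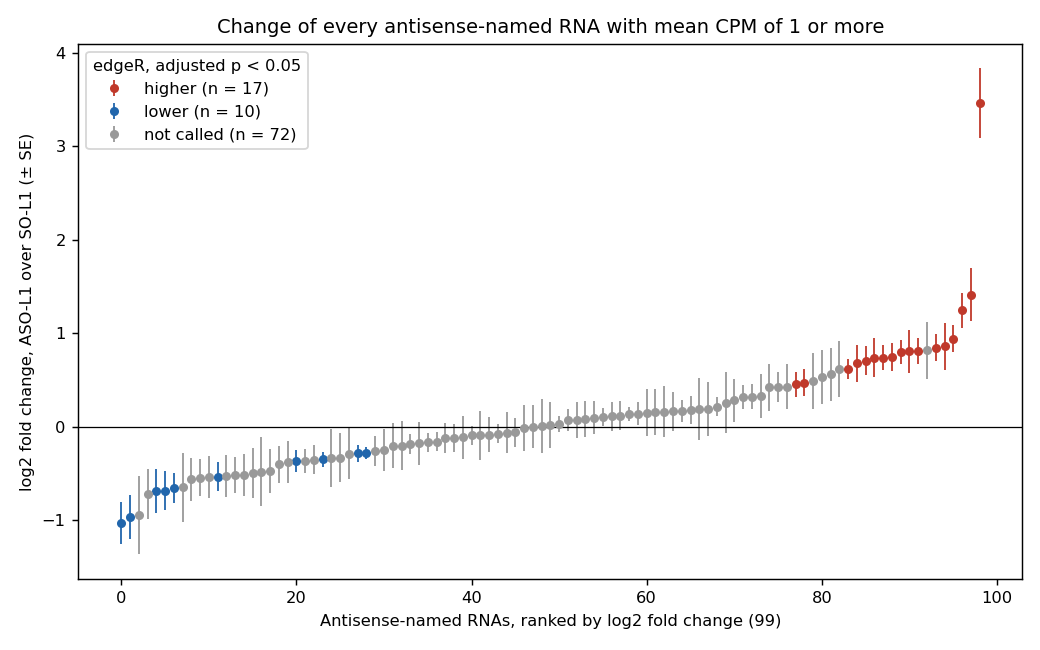
Log2 fold change (ASO-L1 over SO-L1, y axis, bars are ± SE) of the 99 antisense-named RNAs, ranked along the x axis and coloured by call. APCDD1L-AS1 stands alone at 3.46, and the 72 members not called lie between -0.95 and 0.82.

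Other noncoding names were counted in the same fit. Antisense-named RNAs below the limit of 1 CPM that could still be tested numbered 72, with 7 higher and 1 lower and a median log2 fold change of 0.11. The called share was 11.1%, against 33.7% of all genes tested. At such levels the filter on counts can be met through a single group, which favours a difference toward that group. The split of 7 and 1 is therefore a description only. Intronic transcripts (symbols ending in IT and a number) had 1 higher and 2 lower of 10 tested. Host genes of small RNAs (symbols ending in HG) had 14 higher and 5 lower of 25 tested, with a median of 0.55. Whether these classes differ from the members was not tested.

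Pairs of COX10, RASAL2, SOX21, RSBN1L and ZNF674 are shown first, because both genes start close to each other on opposite strands and because both genes, or the ratio between them, changed. Each sequence is the 300 bases from 250 before to 50 after the start of the antisense-named gene, on its own strand, from RefSeq (GRCh38.p14), and the capitals mark the bases that lie between its start and the start of the sense-named gene. They are COX10-AS1 at chr17:14069409-14069708 on the minus strand, RASAL2-AS1 at chr1:178093944-178094243 on the minus strand, SOX21-AS1 at chr13:94712466-94712765 on the plus strand, RSBN1L-AS1 at chr7:77696216-77696515 on the minus strand and ZNF674-AS1 at chrX:46545240-46545539 on the plus strand.
COX10-AS1: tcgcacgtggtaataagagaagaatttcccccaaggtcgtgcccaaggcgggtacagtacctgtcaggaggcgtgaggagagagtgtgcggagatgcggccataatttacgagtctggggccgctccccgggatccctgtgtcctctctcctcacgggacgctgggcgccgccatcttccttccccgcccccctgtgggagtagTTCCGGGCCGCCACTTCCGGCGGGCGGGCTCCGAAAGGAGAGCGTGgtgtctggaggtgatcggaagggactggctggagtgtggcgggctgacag
RASAL2-AS1: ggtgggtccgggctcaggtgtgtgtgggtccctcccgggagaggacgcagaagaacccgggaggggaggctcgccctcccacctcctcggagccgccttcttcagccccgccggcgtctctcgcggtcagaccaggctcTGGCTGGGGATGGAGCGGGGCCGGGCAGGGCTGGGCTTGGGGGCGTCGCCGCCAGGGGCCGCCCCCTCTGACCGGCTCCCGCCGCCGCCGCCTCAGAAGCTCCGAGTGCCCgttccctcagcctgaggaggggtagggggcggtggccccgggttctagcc
SOX21-AS1: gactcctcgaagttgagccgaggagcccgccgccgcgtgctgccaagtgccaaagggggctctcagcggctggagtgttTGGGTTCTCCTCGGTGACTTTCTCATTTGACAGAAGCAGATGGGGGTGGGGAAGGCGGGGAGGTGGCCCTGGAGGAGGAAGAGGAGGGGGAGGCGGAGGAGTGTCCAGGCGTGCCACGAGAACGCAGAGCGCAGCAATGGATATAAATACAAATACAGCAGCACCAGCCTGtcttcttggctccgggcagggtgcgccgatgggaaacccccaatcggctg
RSBN1L-AS1: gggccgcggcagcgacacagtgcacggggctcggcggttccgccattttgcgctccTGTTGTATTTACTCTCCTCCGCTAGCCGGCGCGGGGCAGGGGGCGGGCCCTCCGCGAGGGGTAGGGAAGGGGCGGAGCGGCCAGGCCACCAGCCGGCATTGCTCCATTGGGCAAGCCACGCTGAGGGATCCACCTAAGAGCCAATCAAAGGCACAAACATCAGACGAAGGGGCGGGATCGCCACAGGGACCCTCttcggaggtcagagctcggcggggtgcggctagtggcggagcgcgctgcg
ZNF674-AS1: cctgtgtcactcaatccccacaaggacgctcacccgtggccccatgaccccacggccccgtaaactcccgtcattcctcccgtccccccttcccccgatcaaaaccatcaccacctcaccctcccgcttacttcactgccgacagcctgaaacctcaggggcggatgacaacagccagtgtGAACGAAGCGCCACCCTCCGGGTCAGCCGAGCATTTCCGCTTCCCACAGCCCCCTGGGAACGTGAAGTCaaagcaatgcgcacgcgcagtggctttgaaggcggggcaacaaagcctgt

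The capitals run over 46 bases for COX10-AS1, 111 for RASAL2-AS1, 171 for SOX21-AS1, 194 for RSBN1L-AS1 and 69 for ZNF674-AS1. Exact matches to 7 motifs were searched on both strands, namely the CCAAT box, the ETS factor core CCGGAAG, the cyclic AMP response element TGACGTCA, the TATA box TATAAA, the E-box CACGTG and the consensus motifs of NRF1 and YY1. The SOX21-AS1 window holds TATAAA starting 30 bases before its start and CCAAT 40 bases after it. TATAAA occurs in 5 of the 76 members with a promoter in the table and in 11.5% of all 35116 promoters. The COX10-AS1 window holds the YY1 motif on the reverse strand (0.849% of all promoters), the ETS core on the reverse strand (10.3%) and an E-box (7.26%). The RSBN1L-AS1 window holds CCAAT on each strand (34.6% of all promoters hold it), and none of the 7 was found in the RASAL2-AS1 and ZNF674-AS1 windows. The median number of CG dinucleotides was 25 in the members' windows and 14 in all promoters.

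COX10-AS1 and COX10 rose together. COX10 makes the heme A precursor of cytochrome c oxidase. COX10-AS1 was at 1.76, 1.51 and 1.73 CPM in the SO-L1 libraries and at 4.7, 3.64 and 3.57 CPM in the ASO-L1 libraries (CPM of single genes are TMM-normalised from here on). Every ASO-L1 library lay above every SO-L1 library. The log2 fold change was 1.25 ± 0.19 (SE, edgeR adjusted p = 0.00214, n = 3 per group). COX10 went from 31.8 ± 1.38 to 38.9 ± 2.08 CPM (SD, n = 3), a log2 fold change of 0.29 ± 0.08 (edgeR adjusted p = 0.0172). The COX10 call was lost without SO-L1 replicate 1 (edgeR adjusted p = 0.0754) and without SO-L1 replicate 3 (0.0509). It was also lost without replicate 1 (0.112) or replicate 3 (0.111) of both groups. The COX10-AS1 call was kept in all 16 refits of the data described under the processing.

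SOX21-AS1 and SOX21 fell together. SOX21 is a transcription factor of the SOX family, better known from neural progenitors. SOX21-AS1 was at 2.88, 4.52 and 4.27 CPM in SO-L1 and at 1.86, 1.53 and 2.24 CPM in ASO-L1. The groups did not overlap, and the lowest SO-L1 library was replicate 1. Its log2 fold change was -1.03 ± 0.22 (edgeR adjusted p = 0.00735), the largest decrease among the members, and it was called in all 16 refits. SOX21 was at 13.8, 12.1 and 13 CPM in SO-L1 and at 6.07, 3.99 and 6.72 CPM in ASO-L1, again without overlap. Its log2 fold change was -1.21 ± 0.17 (edgeR adjusted p = 0.00183). The ratio of the pair was not called (log2 difference 0.22, limma adjusted p = 0.600).

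RASAL2-AS1 and RASAL2 were called in opposite directions, the only such pair of the 96 whose sense-named gene could be tested. RASAL2 is a Ras GTPase-activating protein. RASAL2-AS1 was at 0.608, 0.814 and 0.522 CPM in SO-L1 and at 1.94, 1.89 and 1.33 CPM in ASO-L1, from 19, 20 and 16 counts in SO-L1. It is 1 of the members that passed 1 CPM through the ASO-L1 libraries alone, so the choice of members favoured a higher value there. The groups did not overlap, and the log2 fold change was 1.41 ± 0.28 (edgeR adjusted p = 0.00508). RASAL2 was at 39.6, 43.4 and 43.7 CPM in SO-L1 and at 33.3, 27.3 and 36.6 CPM in ASO-L1. This was a log2 fold change of -0.38 ± 0.11 (edgeR adjusted p = 0.0206). The RASAL2 call was lost without any 1 of the 3 SO-L1 libraries (edgeR adjusted p = 0.0509 to 0.0804). Without replicate 1 of both groups, the calls of RASAL2 (0.115) and RASAL2-AS1 (0.0768) were both lost.

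RSBN1L-AS1, now named APTR, and ZNF674-AS1 rose while their partners were not called. RSBN1L-AS1 was at 6.34, 7.16 and 8.58 CPM in SO-L1 and at 12.5, 14.1 and 10.5 CPM in ASO-L1, a log2 fold change of 0.74 ± 0.15 (edgeR adjusted p = 0.00534). RSBN1L had a log2 fold change of -0.18 ± 0.08 (0.1). ZNF674, a zinc finger gene, had -0.16 ± 0.17 (edgeR adjusted p = 0.478). ZNF674-AS1 was at 5.54, 6.23 and 4.53 CPM in SO-L1 and at 9.08, 9.74 and 7.76 CPM in ASO-L1, a log2 fold change of 0.71 ± 0.15 (edgeR adjusted p = 0.00697). Both antisense-named RNAs had groups that did not overlap, and both lost the call without replicate 1 of both groups (0.0840 and 0.0849).

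**Figure D2:**
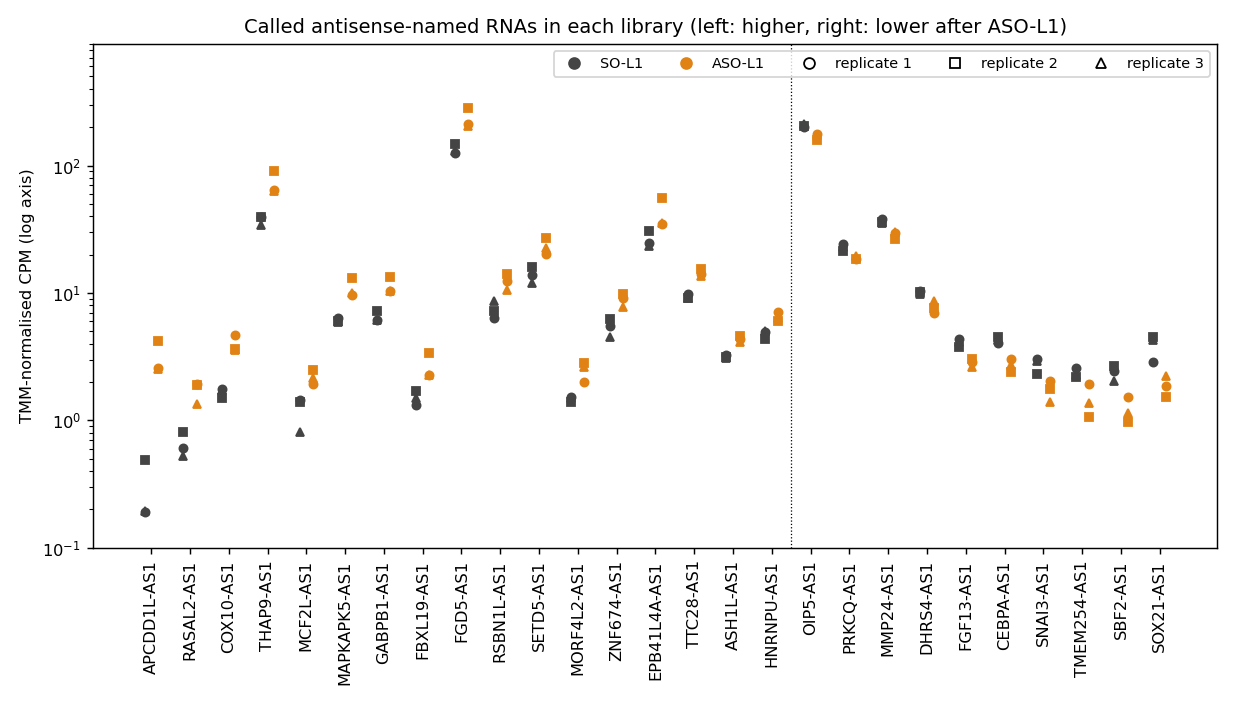
TMM-normalised CPM (log y axis) of the 27 called antisense-named RNAs in each library (grey SO-L1, orange ASO-L1, marker shape for the replicate number), with the 17 higher on the left and the 10 lower on the right. In each of the 27 the groups do not overlap, and ASO-L1 replicate 2 is the highest ASO-L1 library in 14 of the 17, a count not made over all called genes.

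The largest rise was that of APCDD1L-AS1. It was at 0.192, 0.488 and 0.196 CPM in SO-L1, from as few as 6 counts, and at 2.56, 4.21 and 2.53 CPM in ASO-L1. All 3 ASO-L1 libraries lay far above the SO-L1 libraries, and within each group replicate 2 was the highest. The fitted change was 10.99-fold, a log2 fold change of 3.46 ± 0.37 (SE, edgeR adjusted p = 0.00113), and the call was kept in all 16 refits. It too passed 1 CPM through the ASO-L1 libraries alone. APCDD1L, named for its likeness to the Wnt inhibitor APCDD1, was at 1.34, 1.26 and 1.70 CPM in SO-L1 and at 1.61, 1.71 and 1.66 CPM in ASO-L1, with overlap. Its log2 fold change was 0.20 ± 0.21 (edgeR adjusted p = 0.485).

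Among the members with the highest CPM, which are not corrected for length, FGD5-AS1, THAP9-AS1 and EPB41L4A-AS1 rose. FGD5-AS1 was at 126, 147 and 130 CPM in SO-L1 and at 212, 285 and 204 CPM in ASO-L1. The groups did not overlap, with a log2 fold change of 0.80 ± 0.13 (edgeR adjusted p = 0.00329). THAP9-AS1, next to the transposase-derived gene THAP9, was at 39.5, 39.7 and 34.1 CPM in SO-L1 and at 63.8, 91.1 and 62.8 CPM in ASO-L1. The change was 0.94 ± 0.14 on the log2 scale (edgeR adjusted p = 0.00279). EPB41L4A-AS1, the host of a small nucleolar RNA, was at 24.8, 30.9 and 23.2 CPM in SO-L1 and at 35.0, 56.0 and 35.2 CPM in ASO-L1, where replicate 2 stood above the others. Its log2 fold change of 0.68 ± 0.20 (edgeR adjusted p = 0.0335) lost the call without SO-L1 replicate 1 (0.0837) or SO-L1 replicate 3 (0.104). The sense-named genes FGD5, THAP9 and EPB41L4A were not called, with log2 fold changes of 0.24 ± 0.14, 0.06 ± 0.09 and -0.28 ± 0.21.

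Other RNAs with many counts fell or did not pass. OIP5-AS1, the human counterpart of the conserved RNA cyrano, was at 202, 203 and 212 CPM in SO-L1 and at 176, 160 and 173 CPM in ASO-L1. The groups did not overlap, and the fall was small, with a log2 fold change of -0.28 ± 0.06 (edgeR adjusted p = 0.00746), which lost the call without replicate 1 (0.0749) or replicate 3 (0.0875) of both groups. MMP24-AS1, which RefSeq lists as the coding gene MMP24OS, was at 37.9, 35.9 and 35.2 CPM in SO-L1 and at 29.3, 26.4 and 29.8 CPM in ASO-L1. Its log2 fold change was -0.35 ± 0.08 (edgeR adjusted p = 0.00993). The call was lost without SO-L1 replicate 1 (0.0501), and without replicate 1 (0.126) or replicate 3 (0.0547) of both groups. TP73-AS1, a transcribed pseudogene in RefSeq, was at 31.9, 32.9 and 37.3 CPM in SO-L1 and at 35.9, 32.1 and 36.1 CPM in ASO-L1. Its groups overlapped, with a log2 fold change of 0.03 ± 0.09 (edgeR adjusted p = 0.827).

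The other rises lay between 0.45 and 0.86 on the log2 scale. MAPKAPK5-AS1, beside a stress-activated kinase gene, was at 6.34, 5.98 and 5.91 CPM in SO-L1 and at 9.58, 13.2 and 10.1 CPM in ASO-L1 (log2 fold change 0.85 ± 0.14, edgeR adjusted p = 0.00295). GABPB1-AS1, which overlaps the gene of a GABP transcription factor subunit, was at 6.08, 7.16 and 6.10 CPM in SO-L1 and at 10.3, 13.4 and 10.3 CPM in ASO-L1 (0.81 ± 0.14, edgeR adjusted p = 0.00329). Both pairs of groups were well apart, and GABPB1-AS1 lost the call only without replicate 1 of both groups (0.0502). SETD5-AS1, now THUMPD3-AS1, rose by 0.74 ± 0.13 (edgeR adjusted p = 0.00357) and TTC28-AS1 by 0.62 ± 0.10 (0.00295), and both kept the call in all 16 refits. MCF2L-AS1 (0.86 ± 0.25), FBXL19-AS1 (0.81 ± 0.23), MORF4L2-AS1 (0.74 ± 0.21), ASH1L-AS1 (0.47 ± 0.15) and HNRNPU-AS1 (0.45 ± 0.14) had edgeR adjusted p of 0.0206 to 0.0304. Each of these 5 lost the call when SO-L1 replicate 3 was left out, with edgeR adjusted p of 0.0950, 0.0695, 0.0647, 0.0997 and 0.0660 in that order. In the same order they lost it in 4, 5, 5, 10 and 7 of the 16 refits. For ASH1L-AS1 these included DESeq2 (adjusted p = 0.0576).

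The other decreases were of RNAs with low to middling counts. SBF2-AS1, from the locus of a myotubularin-related protein, was at 2.43, 2.64 and 2.02 CPM in SO-L1 and at 1.53, 0.965 and 1.14 CPM in ASO-L1, a log2 fold change of -0.96 ± 0.23 (edgeR adjusted p = 0.0111). CEBPA-AS1, named for the transcription factor CEBPA, was at 4.06, 4.52 and 4.27 CPM in SO-L1 and at 3.05, 2.41 and 2.69 CPM in ASO-L1, a log2 fold change of -0.65 ± 0.16 (edgeR adjusted p = 0.0117). In both the groups did not overlap, and both lost the call without replicate 1 of both groups (edgeR adjusted p = 0.0631 and 0.0703). CEBPA-AS1 also lost it without replicate 3 of both groups (0.0914). CEBPA itself was not called, at 0.475 ± 0.0164 CPM in SO-L1 and 0.442 ± 0.263 CPM in ASO-L1. TMEM254-AS1 (-0.69 ± 0.24), SNAI3-AS1 (-0.69 ± 0.21), FGF13-AS1 (-0.54 ± 0.16), DHRS4-AS1 (-0.37 ± 0.12) and PRKCQ-AS1 (-0.28 ± 0.09) had edgeR adjusted p of 0.0244 to 0.0471. Each of these 5 lost the call without SO-L1 replicate 1 (edgeR adjusted p = 0.0879 to 0.152). In the order given they lost it in 9, 5, 6, 7 and 6 of the 16 refits. For TMEM254-AS1 these included DESeq2 (adjusted p = 0.0705). DHRS4-AS1 is known for silencing at the DHRS4 gene cluster, and DHRS4 had a log2 fold change of -0.17 ± 0.12 (edgeR adjusted p = 0.298).

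Several members with known names did not pass. MCM3AP-AS1 was at 6.03 ± 0.139 CPM in SO-L1 and 6.34 ± 0.240 CPM in ASO-L1, and TMPO-AS1 at 7.75 ± 1.27 and 7.13 ± 0.860 CPM (SD, n = 3). GNAS-AS1, from an imprinted locus, had a log2 fold change of 0.02 ± 0.25 (edgeR adjusted p = 0.953), and DDX11-AS1, linked to sister chromatid cohesion, had 0.42 ± 0.25 (0.219). The 72 members not called had 35 positive and 37 negative log2 fold changes, and in 18 of them the groups did not overlap. Over all genes tested, called or not, the groups did not overlap in 50.9%. The share among all genes not called was not counted, so the 18 are a description only. The block called 11 of the 72, with edgeR adjusted p of 0.0208 to 0.0412. SERTAD4-AS1, TMEM161B-AS1, BOLA3-AS1 and DLGAP1-AS2 were higher. FLVCR1-AS1, LBX2-AS1, PTPRG-AS1, PSMG3-AS1, CD27-AS1, ZBED3-AS1 and SLC2A1-AS1 were lower. SERTAD4-AS1 (0.820 CPM in SO-L1, 1.43 in ASO-L1) passed 1 CPM through ASO-L1 alone, so the choice of members favoured a higher value there. A member that passed through SO-L1 alone was favoured to be lower in the same way.

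The sense-named genes were 98, since DLGAP1 serves 2 members, and 95 of them could be tested. Of these, 7 rose and 20 fell (28.4% called, median log2 fold change -0.08), and with the block 14 rose and 31 fell. Of all genes tested, 33.7% were called, 18% higher and 15.7% lower. With the block these shares were 45.7%, 23.3% and 22.5%. Few pairs had both genes called, and whether unrelated genes would differ in this was not tested. Beside the 17 antisense-named RNAs that rose, 1 sense-named gene rose, 1 fell and 15 were not called. Beside the 10 that fell, 1 sense-named gene fell and 9 were not called. Conversely, 6 rising and 18 falling sense-named genes stood beside an antisense-named RNA that was not called. Over the 96 pairs the log2 fold changes had Pearson's r of 0.17 and Spearman's rho of 0.16, and 54 pairs shared a sign; the pairs share the same 6 libraries. With the block, pairs called in the same direction numbered 8 (2 higher, 6 lower) and pairs called in opposite directions 7, of which 6 had the antisense-named RNA higher. Without SO-L1 replicate 1 or SO-L1 replicate 3, the sense-named genes called were 16 and 15, and 1 pair was called in the same direction. The share of all genes in these refits was not counted.

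**Figure D3:**
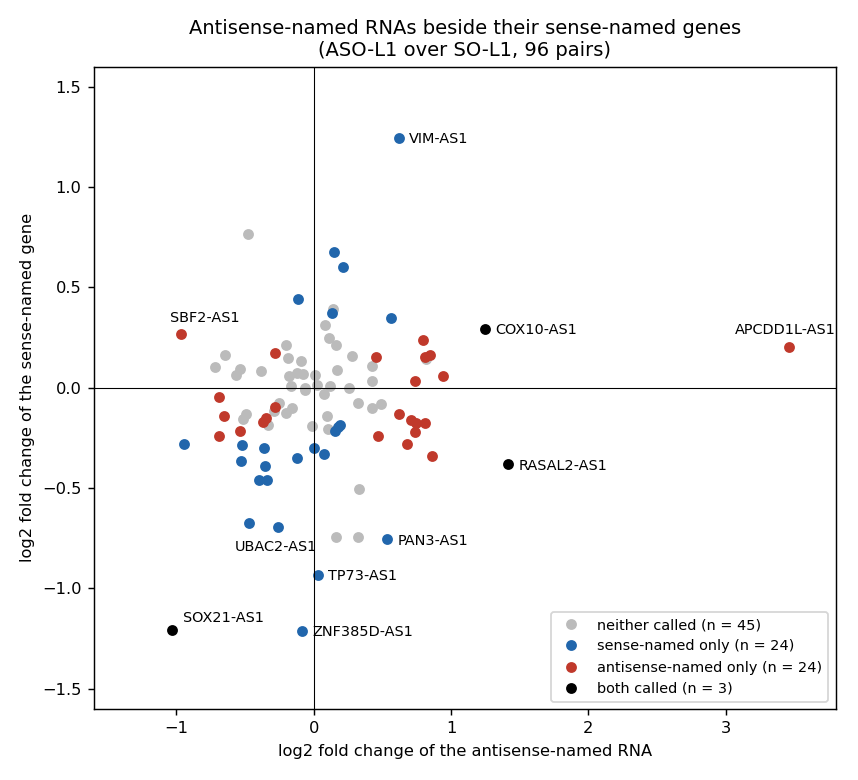
Log2 fold change (ASO-L1 over SO-L1) of the antisense-named RNA (x axis) and of the sense-named gene (y axis) for 96 pairs, coloured by which of the pair was called. Most called pairs are coloured for 1 gene alone (24 and 24), and 3 pairs have both genes called.

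VIM and TP73 show the sense-named side of this; VIM-AS1 was picked after its values were seen. VIM, the intermediate filament gene, was at 125, 151 and 114 CPM in SO-L1 and at 282, 360 and 282 CPM in ASO-L1 (log2 fold change 1.24 ± 0.13, edgeR adjusted p = 0.00130), the largest rise among the sense-named genes. VIM-AS1 was at 0.768, 1.26 and 0.620 CPM in SO-L1 and at 1.44, 1.40 and 1.17 CPM in ASO-L1. Its groups overlapped, and at 0.62 ± 0.30 it was not called (edgeR adjusted p = 0.138). TP73, a member of the p53 family, was at 3.42, 4.31 and 3.46 CPM in SO-L1 and at 1.82, 1.75 and 2.24 CPM in ASO-L1 (-0.93 ± 0.19, edgeR adjusted p = 0.00508), beside the overlapping values of TP73-AS1 given above. PAN3, a subunit of a poly(A) deadenylase, fell from 57.2 ± 1.02 to 33.8 ± 4.94 CPM (-0.76 ± 0.10, edgeR adjusted p = 0.00173), while PAN3-AS1 had 0.53 ± 0.29 (0.177).

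A call in 1 gene of a pair and none in the other does not show that they differ, so the log2 ratio of antisense-named over sense-named CPM was itself tested with limma over all 163 pairs that could be tested, of which 7.98% were called. Among the 96 pairs of the members, 9 were called, 8 with a higher and 1 with a lower ratio in ASO-L1. Of the 8, APCDD1L-AS1, RASAL2-AS1 and PAN3-AS1 met the limit of 1 CPM through ASO-L1 alone, which favours a higher ratio there, so the split of 8 and 1 is a description only. CPM are not corrected for length, so only the difference of a ratio between groups is read. The APCDD1L pair had log2 ratios of -2.42, -1.25 and -2.72 in SO-L1 and of 0.65, 1.26 and 0.59 in ASO-L1, a difference of 2.96 ± 0.40 (limma adjusted p = 0.0250). The RASAL2 pair had -5.86, -5.62 and -6.20 in SO-L1 and -4.05, -3.80 and -4.71 in ASO-L1, a difference of 1.71 ± 0.28 (limma adjusted p = 0.0384). In both pairs every ASO-L1 library had the higher ratio.

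The SBF2 pair was the one with a lower ratio, with -2.69, -2.25 and -3.01 in SO-L1 and -3.59, -4.03 and -3.98 in ASO-L1, a difference of -1.22 ± 0.24 (limma adjusted p = 0.0384). SBF2 itself had a log2 fold change of 0.27 ± 0.12 (edgeR adjusted p = 0.105), and 0.0206 with the block. The ratio also rose for the pairs of ZNF674 (0.85 ± 0.17), COX10 (0.92 ± 0.20) and RSBN1L (0.92 ± 0.20), in which the antisense-named RNA was called higher. It rose as well for TP73 (0.95 ± 0.19), PAN3 (1.29 ± 0.28) and ZNF385D (1.02 ± 0.23), in which the sense-named gene fell and the antisense-named RNA was not called. ZNF385D was low, at 0.945 ± 0.0439 CPM in SO-L1 and 0.403 ± 0.0734 CPM in ASO-L1 (8 to 15 counts). These 6 had limma adjusted p of 0.0384 to 0.0419. The 9 calls rest on all 6 libraries: 0 were left without SO-L1 replicate 1, ASO-L1 replicate 1 or ASO-L1 replicate 2, 1 without SO-L1 replicate 3, 2 without SO-L1 replicate 2 and 3 without ASO-L1 replicate 3. With the block, 17 were called.

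**Figure D4:**
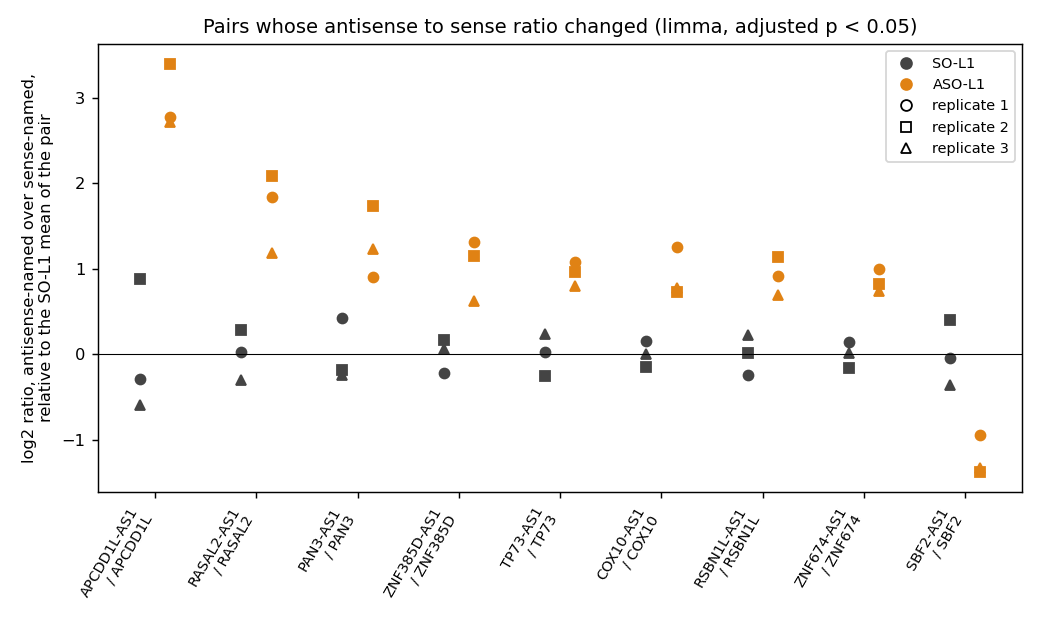
Log2 ratio of the antisense-named over the sense-named CPM in each library, relative to the SO-L1 mean of the pair (y axis), for the 9 pairs whose ratio was called (grey SO-L1, orange ASO-L1, marker shape for the replicate number). The 8 pairs on the left lie higher in ASO-L1 and the SBF2 pair lies lower, without overlap in any of the 9.

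The name does not fix how 2 genes lie. In RefSeq (GRCh38.p14), 69 pairs had a start site for both genes. In 24 the genes ran apart from starts at most 1000 bases from each other, in 16 the starts were as near but the genes ran across each other, and in 29 the starts were further away. FGD5-AS1, for example, starts 129479 bases from the FGD5 start, and GABPB1-AS1 starts 1024 bases from the GABPB1 start. Of the 24 divergent members 5 rose and 2 fell, of the 16 crossing members 4 rose and 1 fell, and of the 29 further away 5 rose and 5 fell. Of all genes tested, 18% rose and 15.7% fell. Both pairs called in the same direction without the block, COX10 and SOX21, were divergent. With the block, 8 pairs shared a direction. Those of FLVCR1 and SLC2A1 were also divergent, those of FGF13 and MMP24 started further away, and those of HNRNPU and PSMG3 lacked a start site for both genes. Pearson's r of the log2 fold changes was 0.29 over the 24 divergent pairs, -0.26 over the 16 crossing pairs, 0.09 over 27 of those further away and 0.32 over 29 pairs without a start site for both genes, and no difference between these was tested.

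Overlap of exons bears on the counts, because whether reads were counted by strand is not given in the sources used here. Without strand, reads of an antisense-named RNA and of its partner could not be told apart where their exons overlap. In GENCODE release 29, 81 pairs were found under both names, 61 of them shared exonic bases, and the median overlap in these was 11.1% of the antisense-named exonic bases. Of the 21 called members among the 81, 5 shared no exonic base with the partner, namely COX10-AS1, RASAL2-AS1, ZNF674-AS1, SOX21-AS1 and PRKCQ-AS1. The share was 49.6% for EPB41L4A-AS1, 34.6% for MAPKAPK5-AS1 and 32.2% for SBF2-AS1, and above 50% for none (0) of the called members.

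Within the ASO-L1 group, replicate 2 went furthest in most called members. It was the highest ASO-L1 library in 14 of the 17 that rose and the lowest in 7 of the 10 that fell. Taken by replicate number, all 17 rose and all 10 fell in each of the 3 numbers. That follows from groups that do not overlap, whichever libraries are matched, and is no further support. Number 2 had the largest difference in 10 of the 17 and 6 of the 10. For SOX21-AS1 the differences of log2 CPM were -0.61, -1.51 and -0.91 for numbers 1, 2 and 3, and for THAP9-AS1 they were 0.69, 1.2 and 0.88. Without ASO-L1 replicate 2, 22 members were called, 14 higher and 8 lower, and the share of all genes was not counted.

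The authors' deposited table lists all 99 members, and at the threshold used here (adjusted p under 0.05) 22 of them changed in it, 15 higher and 7 lower, against 21.4% of the 20964 genes in it. All 22 were called in the same direction here. The 5 called here alone were ASH1L-AS1, HNRNPU-AS1, DHRS4-AS1, PRKCQ-AS1 and TMEM254-AS1, with adjusted p of 0.0549 to 0.0715 in the authors' deposited table.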

How the data were processed

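Poly(A) RNA-seq of 6 H9 libraries was used. The deposited raw counts per gene symbol had duplicates removed, per the file headers and name; the submitters' processing notes list Trim Galore 0.4.0, TopHat2 2.0.13, featureCounts, Subread 1.5.0 and hg19 without roles. Not given in the sources used here: annotation, strand setting and treatment of reads with several matches. The authors' deposited comparison table holds log2 fold changes and mean log2 expression, p-values and adjusted p-values, and a moderated t score and log-odds score, per the file headers, and its model is not stated. A deposited batch-corrected table was not used.

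Members, lists and named genes were chosen with earlier results of these data known. The rule for named genes took, among the members, the 10 largest called rises and the 10 largest called falls, the 6 highest means, pairs called together, the 6 smallest p-values of the ratio, the 3 on each side of the limit of 1 CPM and a list of well-known antisense RNAs. SETD5-AS1, MORF4L2-AS1, TTC28-AS1, ASH1L-AS1, HNRNPU-AS1, ZNF385D-AS1, VIM-AS1, GNAS-AS1, DDX11-AS1 and the members called only with the block were named after their values were seen. Symbols with -AS but no number, or with lower-case letters, fall outside the pattern.

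Counts were filtered with filterByExpr (at least 10 counts per library by its rule and 15 in all), leaving 16873 of the 53712 rows, scaled by TMM (factors 0.979 to 1.02) and tested with the robust edgeR 4.0.16 quasi-likelihood test (R 4.3.3), two-sided, Benjamini-Hochberg adjusted over all tested genes, with no term for the replicate number. The SE is the log2 fold change over the square root of F. The common biological coefficient of variation was 10.2%. Log2 ratios used log2 CPM with a prior count of 2 and limma 3.58.1. The smallest two-sided p of an exact permutation test with 3 libraries a group is 0.1, so none was used. The 16 refits were DESeq2 1.42.0, limma-voom, other scaling (RLE, library totals), other filters, the replicate block and 9 with libraries left out. The tests were tried on simulated data with 200 changed genes. No library pair was alike within sampling noise (chi-square per degree of freedom 1.97 to 22.1).

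Same-numbered libraries deviated together from their group means with correlations of 0.102, 0.377 and 0.211. For the block, equal replicate numbers were assumed to be pairs, which the labels do not state and the data bear out only in part. SO-L1 replicate 1 correlated more with ASO-L1 replicate 3 (0.156) than with its own number. SO-L1 replicate 3 correlated with ASO-L1 replicate 1 at 0.162, below the 0.211 with its own number but above the 0.102 of number 1. Only number 2 is therefore clear. RefSeq tables (GRCh38.p14) matched 98 of 99 members by symbol or synonym, not HNRNPU-AS1, and no coordinates were taken from the hg19 files.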

Additional observations from a re-analysis of the deposited data

How the results depend on the processing

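Of the 27 called antisense-named RNAs, 8 kept the call in all 16 refits (APCDD1L-AS1, COX10-AS1, THAP9-AS1, MAPKAPK5-AS1, FGD5-AS1, SETD5-AS1, TTC28-AS1 and SOX21-AS1), 19 lost it in at least 1, and no called member changed direction. Leaving out libraries gave 8 to 35 called members (27 with all), 7 to 22 higher and 1 to 13 lower, 5 to 48 sense-named genes (27 with all), 2 to 17 higher and 3 to 31 lower, 1 to 10 pairs called in the same direction (2 with all) and 0 to 3 called ratios (9 with all). The lowest and highest counts of called members and of sense-named genes came without replicate 1 and without replicate 2 of both groups, and the cause was not tested. Calls over all genes were not counted in these refits, so the counts do not show that the members depend more on single libraries than other genes.

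With the replicate block, 38 members were called, 21 higher and 17 lower, with 45 sense-named genes (14 higher, 31 lower), 8 pairs in the same direction and 17 ratios, and the block lost none of the 27. Pairs in the same direction were 5 with library totals and 4 with a filter of CPM above 1 in 3 libraries. At least 2-fold calls were 4, with 3 higher and 1 lower. DESeq2 called 25 members and limma-voom 28, and their shares over all genes were not counted.

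Single refits covered only the called or named members and their sense-named genes. Among these, 7 changed sign, and none of the 7 was called. With library totals they were -0.0044 for TP73-AS1 and -0.0022 for MORF4L2. Leaving out libraries gave -0.0278 to 0.0982 for TP73-AS1, -0.0166 to 0.0630 for MORF4L2, -0.0628 to 0.415 for MID1IP1-AS1, -0.288 to 0.0322 for ZNF674, -0.219 to 0.0176 for TTC28, -0.706 to 0.111 for CEBPA and -0.0957 to 0.0184 for TMEM254. The causes were not tested. Depth limits members under 2 CPM, of which 6 of 38 were called.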

Other observations

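A few antisense genes lie outside the pattern or the limit. C17orf76-AS1, whose symbol holds lower-case letters, had a higher mean than any member, 215 CPM, and rose by 0.63 on the log2 scale (edgeR adjusted p = 0.00455). PINK1-AS, C20orf166-AS1 and BDNF-AS also reached 1 CPM, and none of these 3 was called (edgeR adjusted p = 0.859, 0.0561 and 0.178). ZEB1-AS1, named for the mesenchymal transcription factor ZEB1, lay below the limit at 0.571 CPM and had a log2 fold change of 2.04 (edgeR adjusted p = 0.00704). So low a gene can meet the filter on counts through a single group, which favours a difference toward that group. PSMD6-AS2 was at 0.670 CPM with -0.59 (0.188).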
